A study of Mus musculus with 6 samples.

Results

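A set of 10 chaperone and chaperone-regulating genes was followed in mouse immature dendritic cells (imDCs), which capture antigen before they mature and present it to T cells, under fluid shear stress (FSS) and in static culture. They encode 3 small heat shock proteins (Hspb1, Hspb8 and Cryab), 5 J-domain co-chaperones of HSP70 (Dnaja1, Dnaja2, Dnajb1, Dnajb4 and Dnajb6), the HSP70 co-chaperone BAG3 and the transcription factor HSF1. They were chosen by gene symbol, and each of the 10 was found among the 22899 genes of the series. The FSS group held 3 libraries of imDCs loaded at 10 dyn/cm2 for 3 h in a cone-plate device, in which a turning cone drags the medium over the cells. The static group held 3 libraries of imDCs cultured without flow. In both groups the cells were grown from the marrow of male C57BL/6 mice aged 7 weeks, for 7 days in IL-4 at 10 ng/ml together with GM-CSF at 20 ng/ml, and were then selected by CD11c. The load was set by the range of venous flow, and the comparison asks how it affects gene expression.

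Small heat shock proteins hold unfolding proteins in a soluble state without using ATP. J-domain proteins deliver such clients to HSP70 and trigger its ATP hydrolysis, and BAG3 speeds the release of the nucleotide and links HSP70 with small heat shock proteins and with autophagy. HSF1 is kept inactive in unstressed cells and, once released, binds heat shock elements, which are inverted repeats of the letters GAA, in the promoters of many of these genes. In dendritic cells, chaperones also take part in the handling of antigen peptides.

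The deposited values carry no unit and were read as FPKM, the fragments of a gene divided by its transcript length and by all mapped fragments of the library. Between 10390 and 10959 genes reached 1 FPKM in a library, and summed FPKM ran from 413898 to 470596. Read depth is unknown, which leaves the counting error of each value unknown too. The labels do not say whether libraries of a group came from separate cultures or mice, so p-values describe no more than the spread among these samples, and that spread may be technical. The labelled cell type was carried by Itgax, which encodes CD11c, at 448 ± 52.6 FPKM in FSS and 537 ± 54.3 FPKM in static imDCs (SD, n = 3 each), and by the MHC class II gene H2-Ab1, at 1096 ± 129 FPKM in FSS and 1035 ± 75.6 FPKM in static imDCs. Flt3 and Cd209a, further dendritic cell markers, stayed below 1 FPKM in all 6 libraries. Of the 10 dendritic cell markers 8 were tested by limma, and Irf4 alone passed: it fell to 106 ± 17.6 FPKM in FSS imDCs, against 388 ± 55.0 FPKM in static imDCs (adjusted p = 0.0133). With the replicate number as a block, Itgax, Zbtb46 and Ccr7 fell as well, and the fall of Itgax did not pass once libraries were also scaled by median ratio (limma adjusted p = 0.495). Markers of other cell types were summed per library. The 8 neutrophil markers summed to 257 to 433 FPKM in FSS and 290 to 521 FPKM in static libraries, and the 8 macrophage and monocyte markers to 3752 to 7432 FPKM in FSS and 3506 to 6707 FPKM in static libraries. The 6 mast cell and basophil markers summed to 7.02 to 15.7 FPKM in FSS and 5.99 to 13.9 FPKM in static libraries, and the 7 lymphocyte markers to 1.86 to 2.82 FPKM in FSS and 1.42 to 4.12 FPKM in static libraries. The summed ranges of the 2 groups overlapped for each of these lists. Lyz2, at 5039 FPKM in FSS and 4584 FPKM in static imDCs on average, made up most of the macrophage sum. Csf1r averaged 158 FPKM in FSS and 143 FPKM in static imDCs, Adgre1 42.3 and 33.0 FPKM, and Mrc1 63.9 FPKM in both. The lymphocyte marker Ncr1 lay at or near 0, and no marker of these lists passed the limma test described below without the block. With it, the macrophage markers Mertk, Adgre1 and Lyz2 and the mast cell and basophil marker Prss34 rose, and Fcgr1, Cd14 and the neutrophil marker S100a8 fell. Mertk averaged 43.0 ± 18.6 FPKM in FSS and 17.98 ± 4.93 FPKM in static imDCs, and Fcgr1 3.56 ± 0.525 FPKM in FSS and 6.11 ± 1.09 FPKM in static imDCs (SD, n = 3 each), without overlap in either gene. The part of these markers in the results was not tested.

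The promoters of the genes were read for heat shock elements. RefSeq windows on GRCm38.p6, from 250 bases before to 50 bases after a transcript start, were at hand for 8 of the 10 genes; Cryab and Hsf1 had none. The letters GAANNTTC, an inverted pair of GAA units that reads the same on both strands, occurred in windows of 5 of the 8 genes: Hspb1, Hspb8, Bag3, Dnaja1 and Dnajb6. The same letters were in 7.86% of all 32851 windows, and in windows of 7.16% of the 8802 tested genes that had a window. These 5 windows are shown because their letters can be set beside the levels, with the pairs in capitals, each 5′ to 3′ along the strand of the gene.
Hspb1, chr5:135887669-135887968, plus strand: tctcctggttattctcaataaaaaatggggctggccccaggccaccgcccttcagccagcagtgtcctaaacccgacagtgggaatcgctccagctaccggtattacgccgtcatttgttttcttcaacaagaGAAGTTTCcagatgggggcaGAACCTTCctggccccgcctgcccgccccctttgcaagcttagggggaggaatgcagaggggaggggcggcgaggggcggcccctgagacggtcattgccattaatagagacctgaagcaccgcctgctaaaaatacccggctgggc
Hspb8, chr5:116422815-116423114, minus strand: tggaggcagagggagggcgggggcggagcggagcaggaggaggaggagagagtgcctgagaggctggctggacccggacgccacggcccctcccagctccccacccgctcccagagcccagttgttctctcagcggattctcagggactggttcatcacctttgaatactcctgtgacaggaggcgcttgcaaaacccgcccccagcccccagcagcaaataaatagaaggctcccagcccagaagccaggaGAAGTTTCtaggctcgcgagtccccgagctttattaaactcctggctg
Bag3, chr7:128523333-128523632, plus strand: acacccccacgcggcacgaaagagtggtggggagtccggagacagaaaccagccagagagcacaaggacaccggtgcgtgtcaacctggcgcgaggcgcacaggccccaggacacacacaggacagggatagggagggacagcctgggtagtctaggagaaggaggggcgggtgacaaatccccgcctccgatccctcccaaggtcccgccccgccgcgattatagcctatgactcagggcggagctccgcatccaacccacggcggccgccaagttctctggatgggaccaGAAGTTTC
Dnaja1, chr4:40722218-40722517, plus strand: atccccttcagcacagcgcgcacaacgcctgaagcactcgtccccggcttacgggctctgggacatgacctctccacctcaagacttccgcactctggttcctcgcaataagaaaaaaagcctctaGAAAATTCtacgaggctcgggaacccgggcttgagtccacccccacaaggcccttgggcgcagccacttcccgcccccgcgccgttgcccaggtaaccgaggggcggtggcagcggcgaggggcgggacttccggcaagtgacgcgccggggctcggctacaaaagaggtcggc
Dnajb6, chr5:29735648-29735947, plus strand: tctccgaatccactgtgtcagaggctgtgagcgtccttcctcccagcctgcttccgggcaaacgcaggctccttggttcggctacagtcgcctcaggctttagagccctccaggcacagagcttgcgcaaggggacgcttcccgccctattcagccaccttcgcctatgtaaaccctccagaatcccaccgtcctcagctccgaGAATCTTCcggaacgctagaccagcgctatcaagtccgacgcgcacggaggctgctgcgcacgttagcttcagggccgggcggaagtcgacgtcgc

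Hspb1 held 2 pairs, at positions -117 to -110 and -97 to -90 from the start. The first of them, GAAGTTTC, was letter for letter the pair in Bag3 and in Hspb8, where it lay after the start, at bases 43 to 50 in Bag3 and at bases 3 to 10 in Hspb8. Dnaja1 held GAAAATTC at positions -124 to -117 from its first start. In Dnajb6 the pair lay at positions -46 to -39 from the first start and was followed, after 2 bases of any kind, by a further GAA; this longer run, searched on both strands and overlapping the pair, was in 0.603% of all windows. The other order of the pair, TTCNNGAA, which was searched after the data were seen and is not capitalised above, occurred in windows of 2 of the 8 genes and in 8.52% of all windows. It lay at positions -14 to -7 from a start of Dnajb4, and at positions -41 to -34 from the first start of Dnajb6, where it overlaps the pair that begins with GAA. The windows of Dnaja2 and Dnajb1 held neither order, which says only that these letters are not in these windows. A match is a description of the letters and not a binding site.

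**Figure D1:**
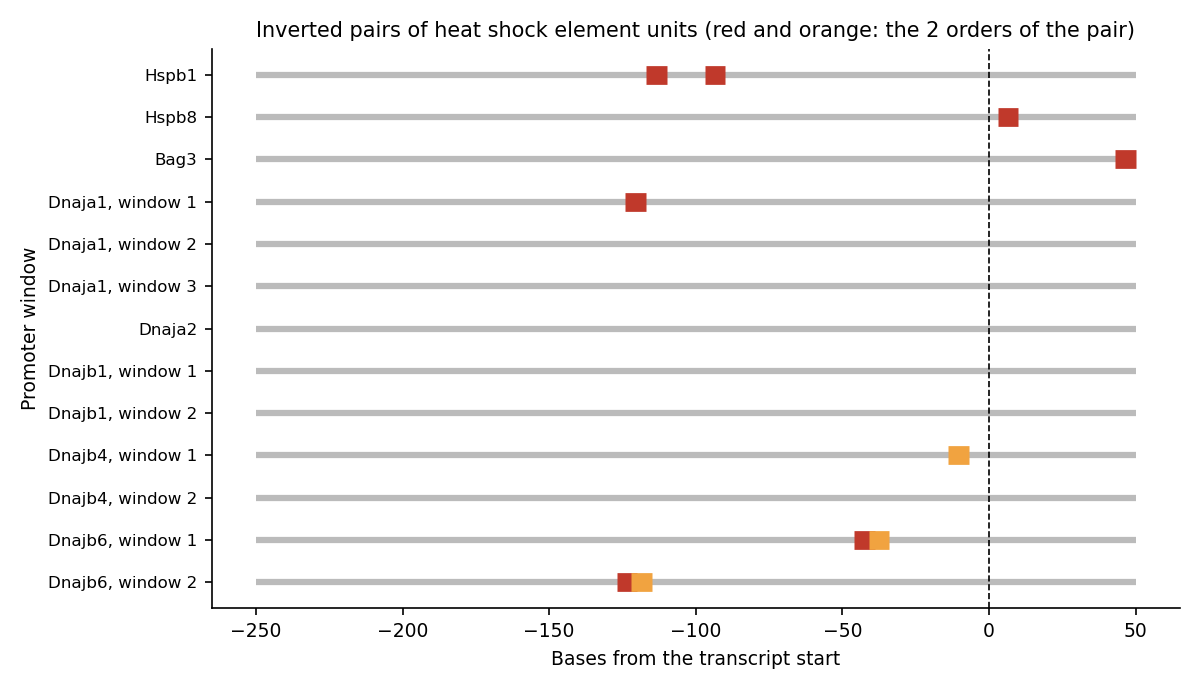
Positions of GAANNTTC (red) and TTCNNGAA (orange) in the promoter windows of 8 genes (grey bars), in bases from the transcript start (dashed line), with a row for each RefSeq window. Hspb1 holds 2 pairs before its start, the pairs of Hspb8 and Bag3 lie after it, and Dnajb4 holds the orange pair just before a start.

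Bag3, Dnajb1 and Dnajb4 rose under FSS, and none of the 10 genes fell. Hspb1 was called higher as well, but it had to differ once it was tested. Dnaja1 and Dnajb6 did not pass in this test but rose in a fit that paired the libraries, and Cryab, Dnaja2 and Hsf1 passed in neither fit. All tests are from limma on log2(FPKM + 1) over the 10899 genes that reached 1 FPKM in 3 or more libraries, with Benjamini-Hochberg adjustment over all of them and a threshold of 0.05. Of the 10 genes 9 were tested, and Hspb8 was not, because it was listed at 0. At an unadjusted p under 0.05 the limma counts of the 9 were 5 higher and 0 lower, where 1969 of the 10899 genes passed in either direction. At the adjusted threshold 4 of the 9 were higher and 0 lower, where 93 of all genes tested (0.853%) were higher and 94 (0.862%) lower. All 3 FSS values lay above the static ones for 5 of the 9 (Hspb1, Bag3, Dnaja1, Dnajb1 and Dnajb4), against 5.1% of all genes tested, and below them for Dnaja2, against 20.4%. The median difference of the 9 was 1.25 log2, beside -0.12 over all genes tested. Hspb1 entered the test only through its FSS libraries and so had to differ, and the count and median are a description for that reason. The replicate numbers 1 to 3, which both groups carry, were taken to pair the libraries, because same-numbered libraries deviated together. With the number as a block in the fit, Dnaja1 and Dnajb6 rose as well, which made 6 higher and 0 lower, against 7.73% higher and 25.1% lower of all genes. When libraries were scaled by their median ratio, which moves the median gene to 0.02, and the block was kept, the count was again 6 and 0, against 19.2% and 16.8%.

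**Figure D2:**
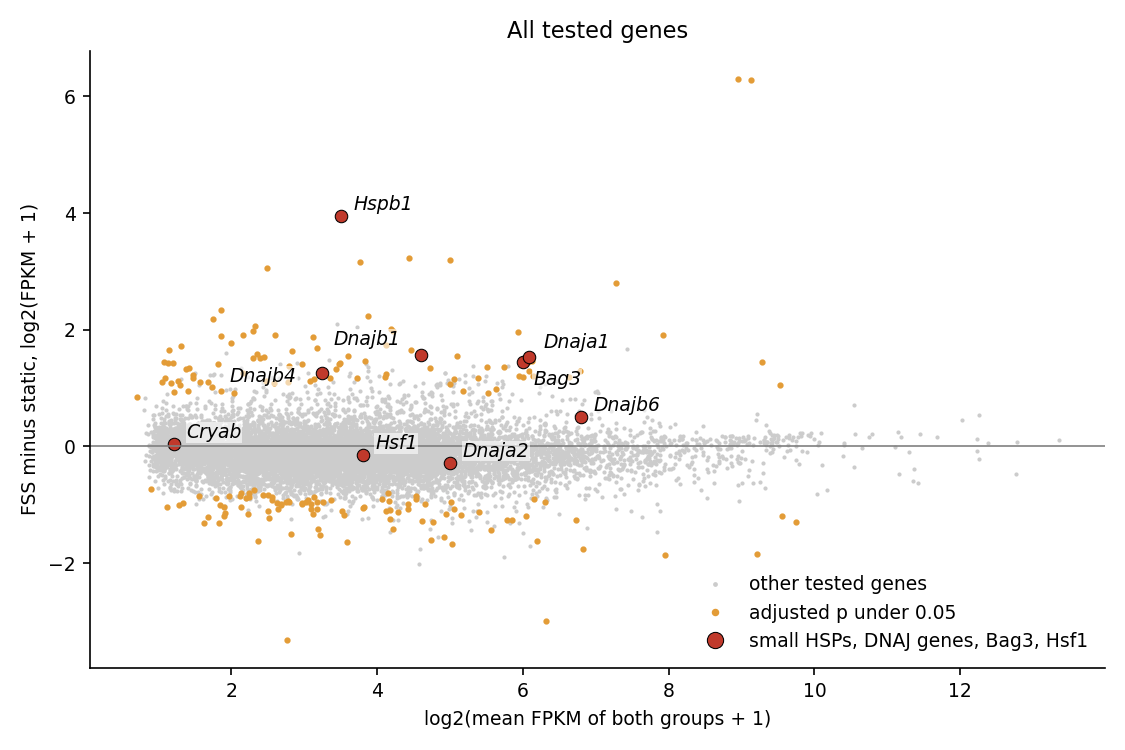
Difference FSS minus static in log2(FPKM + 1) against the mean level of each of 10899 tested genes, with genes at an adjusted p under 0.05 in orange and the 9 tested chaperone genes in red. Hspb1 lies near 4, Dnajb1, Dnaja1, Bag3 and Dnajb4 lie between 1.25 and 1.56, and Cryab, Hsf1 and Dnaja2 lie in the mass of genes around 0.

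Among the small heat shock proteins, Hspb1 alone had FSS and static values that did not overlap. Hspb1, which encodes HSP27, stood at 24.3, 11.5 and 25.6 FPKM in FSS replicates 1, 2 and 3, against 0.24, 0.37 and 0.35 FPKM in static replicates 1, 2 and 3. All FSS libraries lay far above all static ones, and FSS replicate 2 was the lowest of the FSS libraries. The log2 difference was 3.95 ± 0.29 (SE), the third largest of the 10899 genes tested. Hspb1 entered the test through its FSS libraries alone, so it had to differ and its p from that test is not given. With no filter, where limma called 0 genes, the limma adjusted p of Hspb1 was 0.084. It was 0.0488 among genes above 0 in at least 1 library, a set chosen after the data were seen. As ratios of FPKM the pairs gave 101-fold, 31.0-fold and 73.0-fold. These folds rest on static values near the lowest the test admits: Hspb1 ranked 10887 of 10899 in static mean level and 3184 in FSS mean level. In bulk RNA, more cells that express a gene and more RNA per cell cannot be told apart.

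Cryab, which encodes alpha-B-crystallin, a small heat shock protein abundant in lens and muscle, gave 1.14, 0.49 and 2.52 FPKM in FSS libraries and 1.05, 0.63 and 2.09 FPKM in static libraries. Its groups overlapped, with number 3 highest and number 2 lowest in both groups. The log2 difference was 0.04 ± 0.35 (SE; limma adjusted p = 0.968), and its sign turned when FSS replicate 3, static replicate 1 or static replicate 2 was left out. Hspb8, which encodes the small heat shock protein that binds BAG3, was listed at 0 in all 6 libraries. Without read depth, a value of 0 sets no upper limit on its RNA.

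Of 7 other genes listed by symbol as small heat shock proteins 3 were tested. For these limma called 0 with or without the block, and 0 at an unadjusted p under 0.05 without it. Hspb6, which encodes HSP20, averaged 1.70 ± 0.101 FPKM in FSS and 1.57 ± 0.26 FPKM in static imDCs, Hspb9 0.857 ± 0.545 FPKM in FSS and 1.37 ± 0.272 FPKM in static imDCs, and Hspb11 7.05 ± 0.826 FPKM in FSS and 5.93 ± 1.20 FPKM in static imDCs (SD, n = 3 each). Hspb11 rose where the block and median-ratio scaling were combined (limma adjusted p = 0.0184). Hspb2 was listed at 0, Hspb7 and Cryaa lay below 0.1 FPKM on average, and Hspb3 had no value. The share of Hspb1 itself was 68.7%, 50.5% and 70.3% of the summed FPKM of all genes so listed by symbol in FSS replicates 1, 2 and 3, against 2.5%, 3.27% and 3.3% in static replicates 1, 2 and 3. The summed level of these genes was 35.5, 22.8 and 36.4 FPKM in the FSS libraries and 9.6, 11.3 and 10.6 FPKM in the static libraries. In static cells the sum of these genes, listed by symbol, thus came mostly from Hspb11, Hspb6, Hspb9 and Cryab, and in FSS cells mostly from Hspb1. Hspb11 was the largest part in static cells, at 5.26, 7.32 and 5.21 FPKM in replicates 1, 2 and 3. It was listed by symbol alone and its place in the family was not checked. The shares depend on counting it and may not be those of the small heat shock proteins proper.

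**Figure D3:**
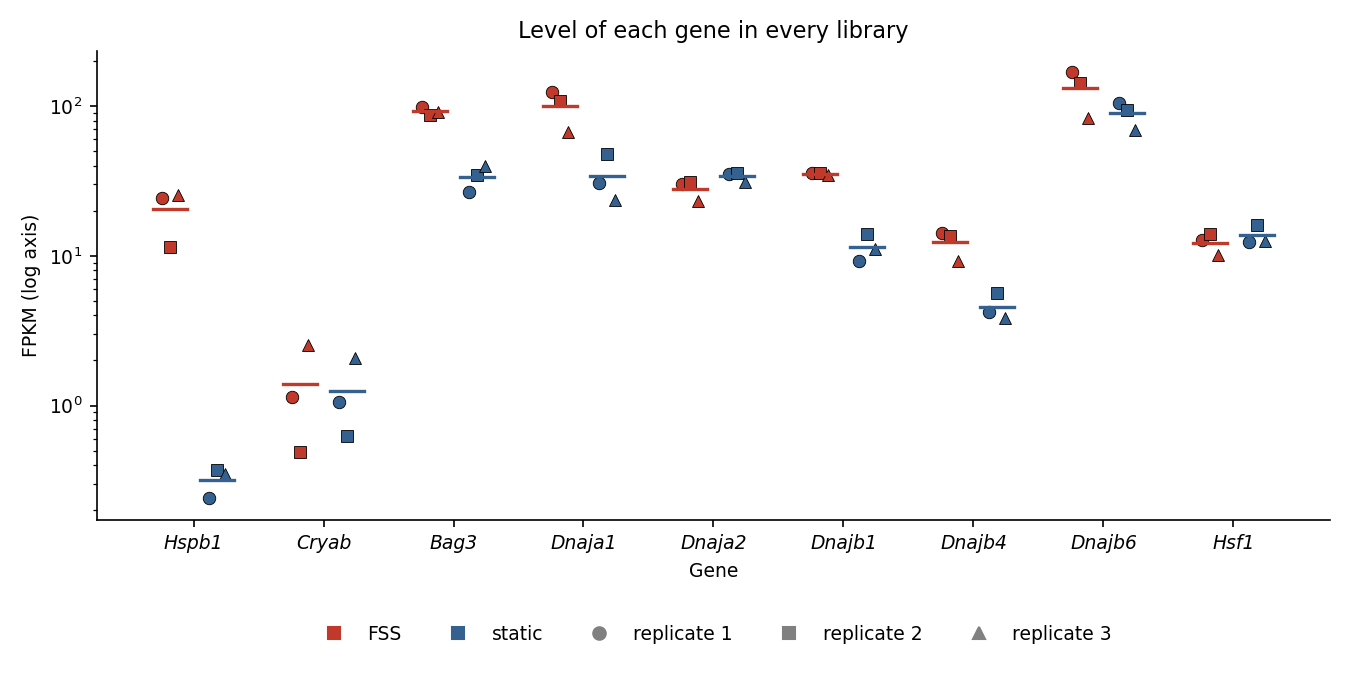
FPKM of 9 genes in every library on a log axis, with FSS libraries in red to the left of static libraries in blue, marker shapes for replicates 1 to 3 and a bar at each mean; Hspb8, listed at 0, is not drawn. FSS lies above static without overlap for Hspb1, Bag3, Dnaja1, Dnajb1 and Dnajb4, and just below it without overlap for Dnaja2. The groups overlap for Cryab, Dnajb6 and Hsf1.

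Bag3 rose. It stood at 98.3, 87.0 and 91.2 FPKM in FSS replicates 1, 2 and 3, against 26.6, 34.6 and 39.7 FPKM in static replicates 1, 2 and 3. The FSS libraries lay close together and all above the static ones, and static replicate 1 was the lowest library. The log2 difference was 1.44 ± 0.19 (SE; limma adjusted p = 0.0203), and the pairs gave 3.69-fold, 2.52-fold and 2.30-fold. Of the 5 other BAG genes, all tested, limma called 0 higher and 0 lower. At an unadjusted p under 0.05 limma counted 0 higher and 1 lower, where 1969 of 10899 genes passed in either direction. Bag2 averaged 1.83 ± 0.625 FPKM in FSS and 2.39 ± 0.747 FPKM in static imDCs, Bag4 2.53 ± 0.301 FPKM in FSS and 3.54 ± 0.453 FPKM in static imDCs, and Bag5 7.13 ± 0.38 FPKM in FSS and 9.09 ± 0.38 FPKM in static imDCs (SD, n = 3 each). With the block Bag4 and Bag5 fell (limma adjusted p = 0.0248 and 0.0391), which median-ratio scaling ended (adjusted p = 0.0822 and 0.185). Bag3 held 45.1% to 55.0% of the summed BAG FPKM in FSS libraries and 21.3% to 25.01% in static libraries, and Bag1, which also acts on HSP70, 22.2% to 27.5% in FSS and 35.6% to 37.7% in static libraries. Bag3 had the highest level of the BAG genes in every FSS library and lay below Bag1 and Bag6 in every static one.

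BAG3 hands clients, filamin among them, to autophagy together with the ubiquitin ligase CHIP, the adaptor p62 and synaptopodin proteins. Of 12 genes listed for this route 11 were tested, and limma called 0, also at an unadjusted p under 0.05; with the block 2 rose and 2 fell (7.73% and 25.1% of all genes did), and 4 rose and 1 fell once libraries were also scaled (19.2% and 16.8% of all genes did). Sqstm1, which encodes p62, averaged 393 ± 66.4 FPKM in FSS and 312 ± 92.8 FPKM in static imDCs (limma adjusted p = 0.508, and 0.0216 with the block). Synpo averaged 3.97 ± 1.51 FPKM in FSS and 8.16 ± 4.19 FPKM in static imDCs (SD, n = 3 each; limma adjusted p = 0.373, and 0.00547 with the block). The filamin gene Flna averaged 151 ± 23.6 FPKM in FSS and 204 ± 38.3 FPKM in static imDCs (SD, n = 3 each; limma adjusted p = 0.316; 0.00961 with the block; 0.0639 when median-ratio scaling was added). Synpo2, a further synaptopodin gene, was not tested and averaged 0.163 ± 0.191 FPKM in FSS and 0.127 ± 0.0416 FPKM in static imDCs (SD, n = 3 each). The median of the tested genes of this list was -0.05 log2.

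Among the J-domain genes of class B, Dnajb1 and Dnajb4 rose. Dnajb1, which encodes the canonical stress-inducible HSP40, stood at 35.7, 35.8 and 34.5 FPKM in FSS replicates 1, 2 and 3, against 9.24, 14.0 and 11.1 FPKM in static replicates 1, 2 and 3. Its FSS values lay within a narrow range, far above the highest static value. The log2 difference was 1.56 ± 0.18 (SE; limma adjusted p = 0.0153). Dnajb4, a close relative of Dnajb1, gave 14.3, 13.5 and 9.21 FPKM in FSS libraries and 4.19, 5.65 and 3.84 FPKM in static libraries. Its groups did not overlap, with number 3 lowest in both, and the log2 difference was 1.25 ± 0.21 (SE; limma adjusted p = 0.0407, and 0.0558 with equal totals).

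Dnajb6, which suppresses the aggregation of polyglutamine proteins, had the highest mean level of the 10 genes in both groups. It stood at 168, 142 and 83.2 FPKM in FSS replicates 1, 2 and 3, against 105, 94.7 and 69.6 FPKM in static replicates 1, 2 and 3. The groups overlapped, because FSS replicate 3 lay below static replicates 1 and 2, but within each pair the FSS library was higher, by 1.61-fold, 1.501-fold and 1.19-fold. The log2 difference of 0.50 did not pass without the block (SE 0.29; limma adjusted p = 0.42) and passed with it (SE 0.10; limma adjusted p = 0.00948).

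Of the class A genes, Dnaja1 and Dnaja2 encode cytosolic J-domain proteins of the same build and gave different values. Dnaja1 stood at 123.2, 108.7 and 66.9 FPKM in FSS replicates 1, 2 and 3, against 30.7, 47.7 and 23.6 FPKM in static replicates 1, 2 and 3. The groups did not overlap, number 3 was lowest in each, and the pairs gave 4.02-fold, 2.28-fold and 2.84-fold. The log2 difference of 1.54 ± 0.32 (SE) missed the threshold without the block (limma adjusted p = 0.0604, and 0.0354 with median-ratio scaling), and Dnaja1 rose with it (limma adjusted p = 0.000883). Dnaja2 gave 30.1, 30.9 and 23.1 FPKM in FSS libraries and 35.3, 35.8 and 31.1 FPKM in static libraries. All FSS values lay just under the static ones. Its log2 difference was -0.28 ± 0.18 (SE; limma adjusted p = 0.465, and 0.0544 with the block), and -0.13 with median-ratio scaling. The ratio of Dnaja1 to Dnaja2 was 4.09, 3.52 and 2.90 in FSS replicates 1, 2 and 3, against 0.869, 1.33 and 0.757 in static replicates 1, 2 and 3.

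**Figure D4:**
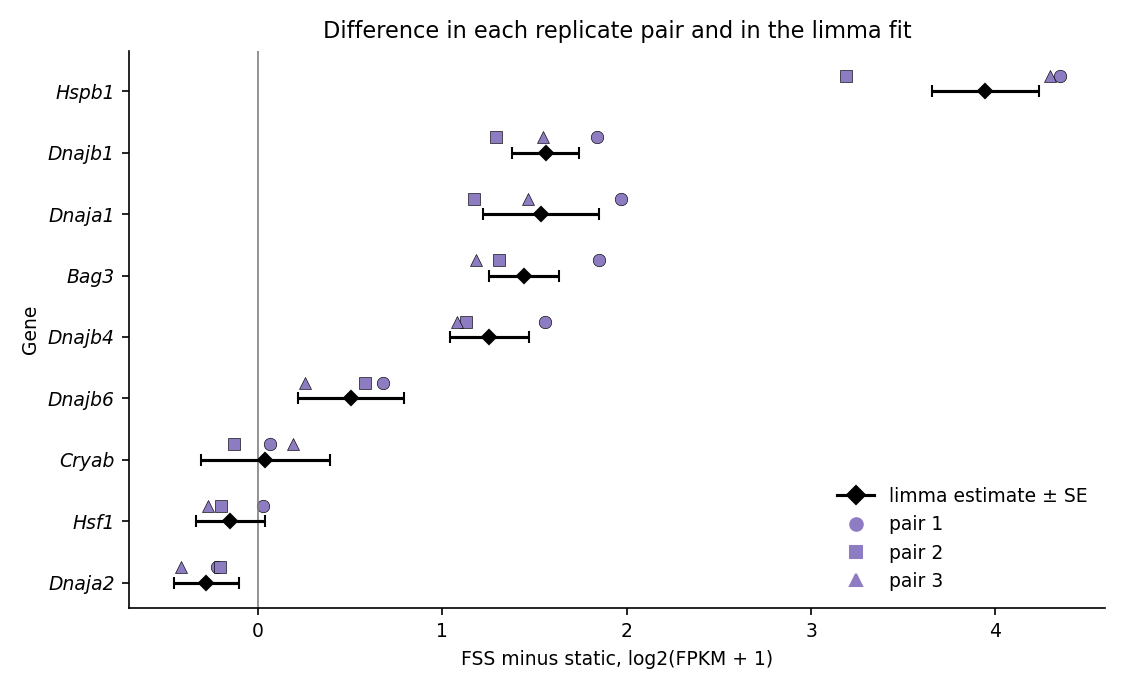
Differences FSS minus static in log2(FPKM + 1) for 9 genes, with purple markers for the 3 replicate pairs and a black diamond and bar for the limma estimate and its SE without the block. All 3 pairs lie above 0 for Hspb1, Dnajb1, Dnaja1, Bag3, Dnajb4 and Dnajb6, and all 3 below 0 for Dnaja2.

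Hsf1 did not pass. It stood at 12.7, 13.9 and 10.2 FPKM in FSS replicates 1, 2 and 3, against 12.4, 16.1 and 12.5 FPKM in static replicates 1, 2 and 3. The groups overlapped, and pair 1 differed by 0.03 log2 while pairs 2 and 3 differed by -0.20 and -0.27. The log2 difference was -0.15 ± 0.18 (SE; limma adjusted p = 0.753, and 0.289 with the block), and -0.00043 with median-ratio scaling. Bag3 was 7.75, 6.27 and 8.97 times as high as Hsf1 in FSS replicates 1, 2 and 3, against 2.14, 2.14 and 3.17 times in static replicates 1, 2 and 3. Of the 7 other genes of the HSF family and its binding partners 2 were tested, and limma called 0 in either fit, and 0 at an unadjusted p under 0.05 without the block. Hsf2, which encodes another heat shock factor, averaged 15.4 ± 7.65 FPKM in FSS and 17.1 ± 7.30 FPKM in static imDCs, and Hsbp1, which encodes a protein that binds HSF1 trimers, 33.6 ± 5.31 FPKM in FSS and 38.1 ± 1.54 FPKM in static imDCs (SD, n = 3 each). The mean of Hsf4 lay below 1 FPKM in both groups, as did that of Hsf5.

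The order of levels differed between the groups. Under FSS it was Dnajb6, Dnaja1, Bag3, Dnajb1, Dnaja2, Hspb1, Dnajb4, Hsf1, Cryab and Hspb8. The ranges of Dnajb6, Dnaja1 and Bag3 overlapped from neighbour to neighbour, as did those of Dnaja2, Hspb1, Dnajb4 and Hsf1. In static cells it was Dnajb6, Dnaja2, Dnaja1, Bag3, Hsf1, Dnajb1, Dnajb4, Cryab, Hspb1 and Hspb8. There the ranges of Dnaja2, Dnaja1 and Bag3 overlapped from neighbour to neighbour, and so did those of Hsf1 and Dnajb1. Hspb1 moved past Dnajb4, Hsf1 and Cryab in the FSS order.

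The other J-domain genes were set beside the 5. Of 49 J-domain genes 41 were tested. At the adjusted limma threshold 2 rose, Dnajb1 and Dnajb4, and 0 fell, where 0.853% and 0.862% of all genes did. At an unadjusted p under 0.05 the limma counts were 5 higher and 7 lower, where 1969 of 10899 genes passed in either direction. With the block 7 rose and 11 fell (7.73% and 25.1% of all genes did). Once libraries were also scaled, 7 rose and 9 fell (19.2% and 16.8% of all genes did). Of the 41, 29 had a negative difference, and their median was -0.13 log2, close to that of all genes. Outside the 5, the largest positive differences of classes A and B were in Dnaja4, at 1.64 ± 0.456 FPKM in FSS and 0.53 ± 0.0819 FPKM in static imDCs, and Dnajb2, which is enriched in neurons, at 6.57 ± 1.61 FPKM in FSS and 3.86 ± 0.456 FPKM in static imDCs (limma adjusted p = 0.161, and 0.00617 with the block; SD, n = 3 each). Dnaja4 entered the test through its FSS libraries alone, so it had to differ and its p is not given. The J-domain counts above, apart from those at the adjusted threshold without the block, include Dnaja4 among the higher genes. They also include Dnajc27, which entered through its static libraries alone, among the lower genes. These counts are a description for that reason. Dnajb5 lay on the other side, at 1.93 ± 0.248 FPKM in FSS and 3.45 ± 0.16 FPKM in static imDCs (limma adjusted p = 0.086, and 0.00402 with the block).

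Class C has 32 listed genes. Of these 28 were tested, and limma called 0. At an unadjusted p under 0.05 limma counted 0 higher and 6 lower, where 1969 of 10899 genes passed in either direction. With the block 1 rose and 9 fell, beside 7.73% and 25.1% of all genes. Once libraries were also scaled by median ratio, 1 rose and 8 fell, beside 19.2% and 16.8% of all genes. Dnajc11, of the mitochondrial inner membrane organising complex, averaged 9.45 ± 0.856 FPKM in FSS and 16.1 ± 1.37 FPKM in static imDCs, Dnajc27 0.713 ± 0.0569 FPKM in FSS and 1.77 ± 0.217 FPKM in static imDCs, and Dnajc17 3.13 ± 0.291 FPKM in FSS and 5.04 ± 0.357 FPKM in static imDCs (SD, n = 3 each). The limma adjusted p was 0.0703 for Dnajc11 and 0.11 for Dnajc17, and 0.00242 and 0.00614 with the block. Dnajc27 entered the test through its static libraries alone, so it had to differ and its p is not given. The class C counts of lower genes include it and are a description for that reason. The gene that rose with the block was Hscb, a mitochondrial co-chaperone of iron-sulphur cluster assembly, named after its values were seen, at 7.46 ± 1.35 FPKM in FSS and 5.56 ± 1.62 FPKM in static imDCs (limma adjusted p = 0.428, and 0.0379 with the block).

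**Figure D5:**
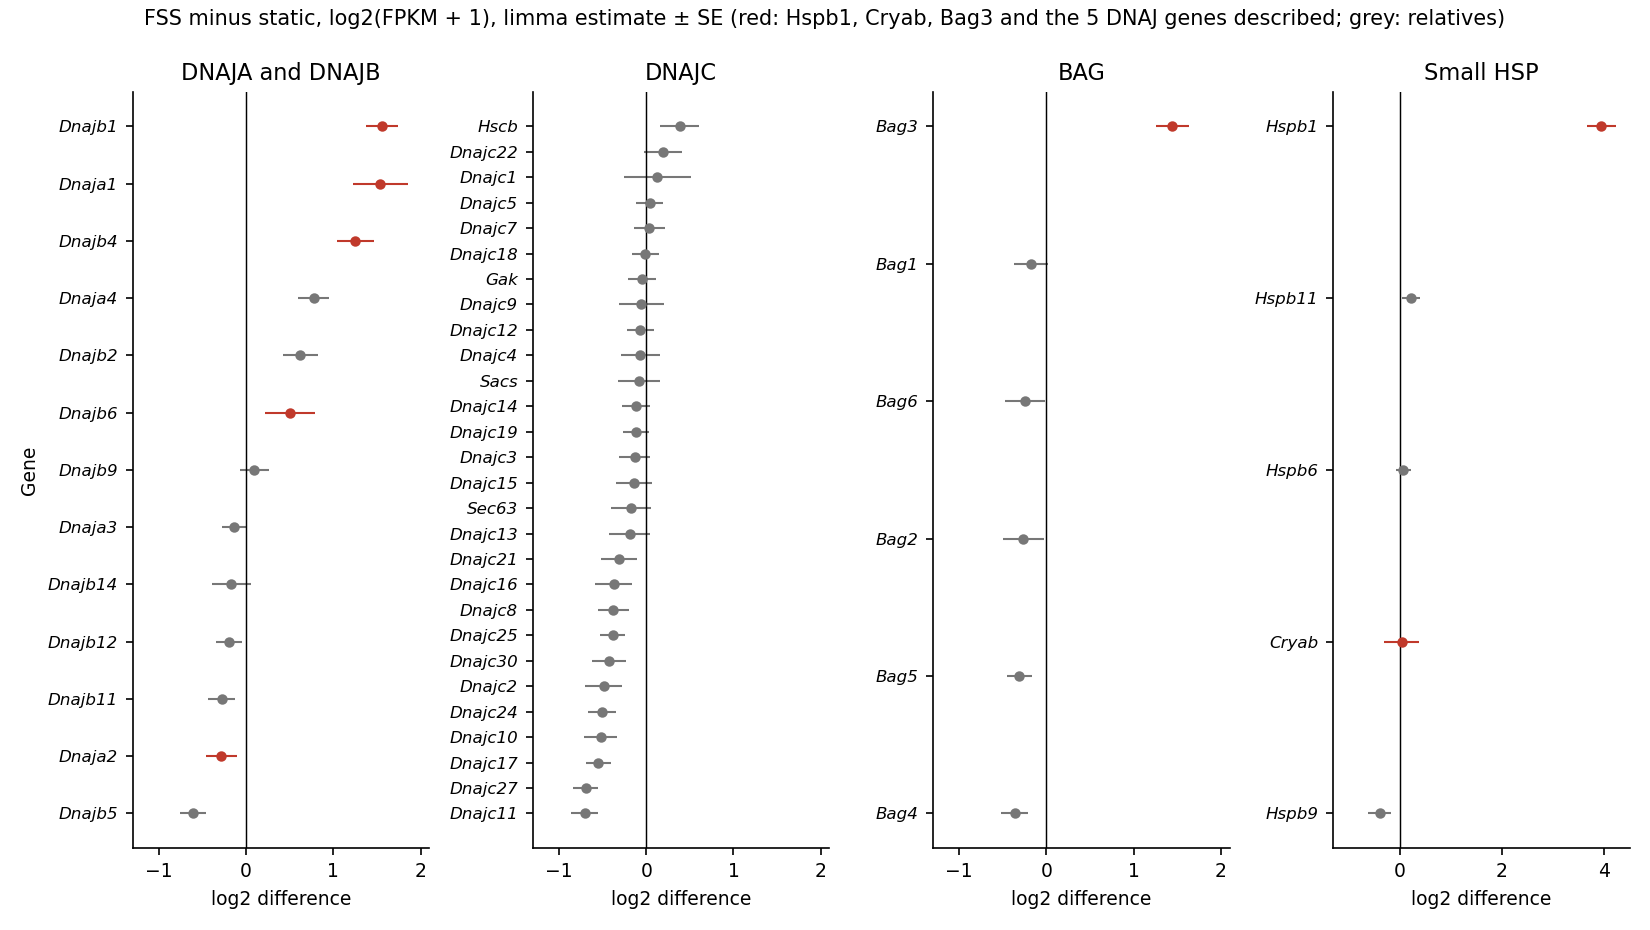
Limma estimates of FSS minus static in log2(FPKM + 1) with SE for the tested genes of classes A and B, class C, the BAG family and the small heat shock proteins, with genes of the 10 in red and relatives in grey; the x axis of the last panel is longer. Bag3 and Hspb1 stand alone in their families, and Dnajb1, Dnaja1 and Dnajb4 lead classes A and B.

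The J-domain messages of classes A and B were set beside those of cytosolic HSP70 genes. Classes A and B were taken by symbol, whatever part of the cell their products work in, so they are not matched partners of these HSP70 genes. The 17 measured class A and B genes summed to 490, 453 and 322 FPKM in FSS replicates 1, 2 and 3, against 307, 332 and 264 FPKM in static replicates 1, 2 and 3. Dnaja1, Dnajb1 and Dnajb4 together held 34.3% to 35.4% of that sum in FSS libraries and 14.4% to 20.3% in static libraries, while Dnajb6 held 25.8% to 34.4% in FSS and 26.4% to 34.2% in static libraries. Hspa1a, Hspa1b and Hspa8, the 3 cytosolic HSP70 genes of highest level under FSS and chosen for that level, summed to 4596, 3085 and 4089 FPKM in the FSS libraries and 1083, 1399 and 1015 FPKM in the static ones. The ratio of these HSP70 messages to the class A and B messages was 9.39, 6.81 and 12.7 in FSS replicates 1, 2 and 3, against 3.53, 4.21 and 3.85 in static replicates 1, 2 and 3, which is a description because of that choice. Of 10 listed HSP70 and HSP110 genes, not all of them cytosolic, 6 were higher and 0 lower at an unadjusted limma p under 0.05, where 1969 of 10899 genes passed in either direction. At the adjusted threshold 5 rose and 0 fell, where 0.853% and 0.862% of all genes did. Among the 5 were Hspa1a, Hspa1b, Hsph1, which encodes HSP110, and Hspa1l, which entered the test through its FSS libraries alone and so had to differ. Reads of Hspa1a and Hspa1b can be divided only uncertainly between these nearly identical genes.

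Most of the calls did not hold in every fit with 1 library left out, and each such fit also had fewer libraries. Over all genes the number called higher ran from 3 without static replicate 1 to 291 without FSS replicate 3, against 93 with all 6 libraries. Hspb1 was called whichever library was left out, but it entered these fits through its FSS libraries alone and had to differ. The count of the 10 that rose, Hspb1 among them, ran from 1 to 5. Bag3 did not pass without FSS replicate 1 (limma adjusted p = 0.0893), FSS replicate 2 (0.0964), static replicate 1 (0.114) or static replicate 2 (0.0979). Dnajb1 did not pass without FSS replicate 1 (limma adjusted p = 0.0692), FSS replicate 2 (0.0897), static replicate 1 (0.0844) or static replicate 3 (0.0506). Dnajb4 passed only without FSS replicate 3 (0.0115), with limma adjusted p-values of 0.165 without FSS replicate 1, 0.131 without FSS replicate 2, and 0.174, 0.1 and 0.117 without static replicates 1, 2 and 3. Dnaja1 passed without FSS replicate 3 (limma adjusted p = 0.018). The differences themselves moved little, between 1.29 and 1.57 for Bag3, 1.43 and 1.70 for Dnajb1, 1.15 and 1.44 for Dnajb4, 1.31 and 1.80 for Dnaja1 and 3.75 and 4.30 for Hspb1.

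The libraries numbered 3 stood apart from the others of their group for several genes. On the log2(FPKM + 1) scale, number 3 minus the mean of numbers 1 and 2 was -0.89 in FSS and -0.51 in static libraries for Dnajb6, and -0.78 in FSS and -0.68 in static libraries for Dnaja1. It was 0.98 in FSS and 0.76 in static libraries for Cryab, -0.05 in FSS and -0.03 in static libraries for Dnajb1, and -0.02 in FSS and 0.38 in static libraries for Bag3. Without both libraries numbered 3, an alternative chosen after the data were seen, 6 genes rose. These were Hspb1, which had to differ, Bag3, Dnaja1, Dnajb1, Dnajb4 and Dnajb6, with Dnaja1 at a limma adjusted p of 0.0236 and Dnajb6 at 0.0477.

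The genes whose values ran most like those of Hspb1 and Bag3 were found by the root mean square distance of log2(FPKM + 1) over the 6 libraries, each gene centred on its mean, among the 8705 tested genes with a mean of 2 or more on that scale and a symbol that is not that of a predicted gene or pseudogene. Nearest to Bag3 were Zfand2a (0.12 log2), an arsenite-inducible protein of the proteasome, then Bcl3 (0.15), Eepd1 (0.16), Dnajb1 (0.17) and Fkbp4 (0.17), an HSP90 co-chaperone. Zfand2a stood at 65.7, 69.5 and 59.1 FPKM in FSS libraries and 21.2, 25.5 and 27.3 FPKM in static libraries, so static replicate 1 was lowest, as for Bag3. Nearest to Hspb1 were Dlgap1 (0.43), Ccdc114 (0.47), Gdf15 (0.63), Hsph1 (0.72) and Nupr1 (0.97). Dlgap1, which encodes a postsynaptic scaffold protein, stood at 23.7, 12.8 and 34.2 FPKM in FSS libraries and 1.00, 1.89 and 1.86 FPKM in static libraries, and Ccdc114, which encodes a docking protein of ciliary dynein, at 40.3, 24.4 and 50.4 FPKM in FSS and 1.56, 3.89 and 4.18 FPKM in static libraries. In both, as in Hspb1, FSS replicate 2 was the lowest FSS library and static replicate 1 the lowest static library. These genes were chosen for their likeness, so no test is given for it.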

How the data were processed

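RNA of 3 FSS and 3 static libraries was compared, grouped and numbered by the sample titles. Per the labels' protocols, spin columns yielded the RNA and DNA nanoballs were sequenced. HISAT and Bowtie2 stand in the submitters' processing notes; which program quantified the genes, on which build and with what use of strand, is not given in the sources used here, and overlapping genes are uncertain for that reason. The authors deposited 1 normalized expression value per gene and library for 22899 genes, with no unit in the file headers, and these values were read here as FPKM. Totals differ between libraries, and value times the longest transcript length summed per library to 1.14 to 1.28 times the total that FPKM of every fragment would give (0.551 to 0.608 times with median lengths). Values could not be turned into whole reads. For 4828 genes the values were blank, which left 18071.

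Genes that reached 1 FPKM in 3 or more libraries were fitted with limma 3.58.1 (R 4.3.3, trend) on log2(FPKM + 1), two-sided; 1 FPKM was added before the log, which understates the change of low genes. Deviations from group means correlated at 0.792, 0.664 and 0.866 between same-numbered libraries, so the numbers, whose meaning the labels do not give, were taken to pair them. The fit was also run on simulated data, whose outcome is not given, and no result here rests on it. Alternatives were a pseudocount of 0.1, no filter, median-ratio scaling, equal totals, the block, and each library left out. Named besides the 10 genes are the 3 tested genes of smallest adjusted p in each list and the 5 nearest to Hspb1 and to Bag3. Cell type markers, Bag1, Bag6, Hspa8, Hsph1, Hscb and relatives that were not tested are named outside this rule, after their values were seen. The 10 genes and the lists were chosen with earlier results of these data known. Heat shock elements were searched on both strands in RefSeq windows of GRCm38.p6, matched by gene ID. A further list of cell type markers is not reported here.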

Additional observations from a re-analysis of the deposited data

How the results depend on the processing

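Without the block, 93 genes were higher, 94 lower, and 4 of the 10 chaperone genes higher. These were 842, 2739 and 6 with the replicate block, 158, 71 and 5 with median-ratio scaling, 68, 45 and 3 with equal totals, 2092, 1829 and 6 with the replicate block and that scaling, 79, 72 and 4 with a pseudocount of 0.1, and 402, 373 and 6 without both libraries numbered 3. With no filter limma called 0, 0 and 0 (2692 genes at an unadjusted p under 0.05), and 14, 7 and 2 among genes above 0 in at least 1 library, a set chosen after the data were seen; more genes at or near 0 entered both fits. With each library left out in turn the counts ran from 3 to 291, 0 to 176 and 1 to 5, where 0 lower (1466 genes at an unadjusted limma p under 0.05) was without static replicate 1. None of the 10 was lower in any setting run. The sign turned for Cryab (-0.29 to 0.33 with a library left out, -0.034 without both libraries numbered 3), for Hsf2 (-0.51 to 0.25) and for Hspb6 (-0.0010 to 0.15); the causes were not tested. Depth is unknown, so low values such as those of Hspb1 in static cells carry an unmeasured counting error.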
